A study of Mus musculus with 24 samples.

Results

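Mammary tumours given the higher of 2 oral doses of E7386, 50 mg/kg, were compared with tumours given 25 mg/kg on day 4 of treatment. The comparison rested on 8 of the 24 RNA-seq libraries of the study, 4 per dose, and on the 15736 genes that reached 1 TPM in at least 4 of those 24. TPM is a relative transcript abundance, corrected for gene length and for the library total. The tumours came from B6SJL-Tg(Wnt1)1Hev/J mice, whose MMTV-Wnt1 transgene places the growth factor Wnt1 under a viral promoter active in mammary epithelium. Diced pieces of spontaneous tumours grew in C57BL/6J hosts, and a tumour size of about 200 mm3 set day 1. E7386, known as a modulator of the interaction between β-catenin and the coactivator CBP, or vehicle was then given, E7386 2 times daily for 3 days up to day 4 or 7 days up to day 8. All 8 tumours of the main comparison thus carried the transgene and received the compound, and the vehicle and day 8 libraries serve only as references. The sources used here give no ages. Whether the 4 libraries of a dose are separate animals is not stated in the labels, so the spread behind each p-value may be technical.

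Between 14592 and 14985 genes reached 1 TPM in each of the 8 libraries, and the mitochondrial genome supplied 8.61% to 11.1% of all TPM. The tissue label was checked against epithelial markers. Krt14 and Krt5, keratins of basal mammary cells, had means of 888 and 485 TPM at 25 mg/kg, and the luminal keratins Krt8 and Krt18 had 258 and 355 TPM. The transgene product Wnt1 lay between 90.3 and 139 TPM at 25 mg/kg and between 94.3 and 138 TPM at 50 mg/kg. Tissue around the tumour differed between libraries. The summed TPM of the skeletal muscle markers ran from 112 to 254 at 25 mg/kg and from 39.6 to 799 at 50 mg/kg, where replicate 4 was the highest. Erythroid markers summed to between 19.0 and 77.8 TPM at 25 mg/kg and between 7.17 and 193 TPM at 50 mg/kg, again with replicate 4 on top. The adipocyte markers summed to between 112 and 130 TPM at 25 mg/kg and between 142 and 666 TPM at 50 mg/kg, where replicate 1 was the highest. In bulk tissue, fewer cells of a type and less RNA per cell cannot be told apart.

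The programmes that separated the doses are known from other settings. When amino acids run short or another stress activates an eIF2 kinase, cells slow general translation and make more of the transcription factor ATF4, which induces enzymes of amino acid synthesis, amino acid transporters and tRNA synthetases; this is the integrated stress response. SREBP factors induce the cholesterol pathway when membrane sterol falls. HIF factors induce glycolysis, lactate export and mitophagy genes when oxygen is low.

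Raising the dose from 25 to 50 mg/kg was accompanied on day 4 by higher levels of amino acid synthesis, uptake and tRNA charging genes and by lower levels of sterol synthesis, hypoxia and glycolysis genes. At a limma adjusted p (Benjamini-Hochberg over the 15736 genes) under 0.05, 339 genes passed, which is 2.15% of those tested. Of these, 181 (1.15%) were higher at 50 mg/kg and 158 (1.00%) were lower, and 58 changed by 2-fold or more, 40 up and 18 down. The median log2 fold change of all genes tested was 0.02. Leaving out 25 mg/kg replicate 4 reduced the count to 148, leaving out 50 mg/kg replicate 3 to 193 and leaving out 50 mg/kg replicate 4 to 207. The calls nearest the threshold were Car9 inside it (adjusted p = 0.0499 with limma) and Dap, at 0.05003, outside it. The doses did not overlap, library by library, for 9.89% of the genes tested. No overlap was a condition for the 12 largest rises and 12 largest falls named below. For those genes it describes the choice and adds no support.

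**Figure D1:**
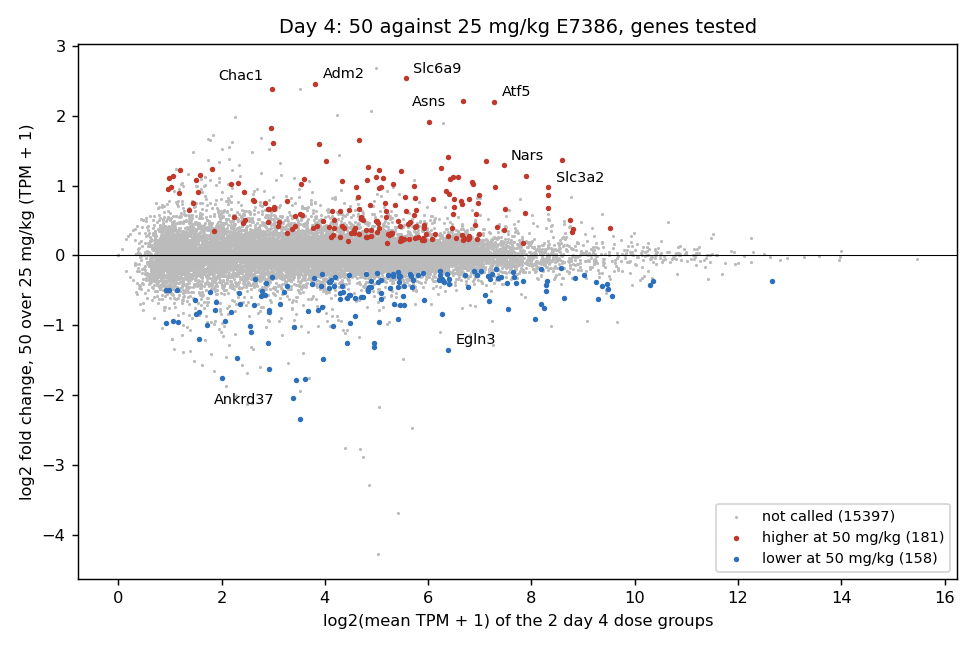
Each point is 1 of the 15736 genes tested; the horizontal axis is log2(mean TPM + 1) over the day 4 dose groups and the vertical axis is the log2 fold change of 50 over 25 mg/kg on the log2(TPM + 1) scale. Red points are the 181 genes called higher, blue points the 158 called lower and grey points the rest; most large rises labelled are integrated stress response genes.

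Some genes of amino acid supply are known to carry a sequence that ATF4 and C/EBP partners can bind, the C/EBP-ATF response element. It was searched as TGATGNAA on both strands in the 250 bases before each annotated start in the RefSeq promoter table (GRCm38.p6). It occurred in 3.91% of the 27025 genes of that table and in 2.44% of the 10703 tested genes found there. Among genes called higher at 50 mg/kg it occurred in 17 of 131 (13.0%), and among genes called lower in 2 of 110 (1.82%). By list it occurred in 6 of 27 integrated stress response, 1 of 9 transporter, 3 of 26 tRNA synthetase and 2 of 20 cholesterol promoters found in the table, the last including that of Idi1, a gene called lower, and in none of 15 hypoxia or 17 glycolysis promoters. The 8 windows below belong to the genes of the first 3 lists that were called higher and hold the element, and are shown to let the element be compared. Capitals mark 1 element per window, which appears as its reverse complement where it lies on the opposite strand, and each sequence runs 5′ to 3′ on the strand of its gene. The Slc7a11 window ends with a match on the opposite strand, left in lower case. A match describes the letters and does not show binding.
Asns, chr6:7693210-7693252, minus strand: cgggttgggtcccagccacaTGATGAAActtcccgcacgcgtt
Chac1, chr2:119351029-119351076, plus strand: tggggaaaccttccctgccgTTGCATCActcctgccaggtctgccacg
Nupr1, chr7:126625553-126625600, minus strand: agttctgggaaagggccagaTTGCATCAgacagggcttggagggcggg
Pycr1, chr11:120643824-120643871, minus strand: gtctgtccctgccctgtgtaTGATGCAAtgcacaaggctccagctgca
Slc7a11, chr3:50443652-50443699, minus strand: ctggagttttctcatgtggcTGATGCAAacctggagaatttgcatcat
Aars, chr8:111033710-111033757, plus strand: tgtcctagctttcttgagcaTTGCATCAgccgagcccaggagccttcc
Gars, chr6:55037951-55037998, plus strand: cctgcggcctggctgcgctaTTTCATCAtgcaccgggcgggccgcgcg
Tars, chr15:11399659-11399693, minus strand: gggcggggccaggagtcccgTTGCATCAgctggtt

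Of 28 integrated stress response genes tested, out of 29 listed, 19 rose at the higher dose and none fell, where 1.15% of all genes rose. Their median log2 fold change was 1.03, against 0.02 for all genes, and 22 of the 28 did not overlap between doses with 50 mg/kg higher, against 5.42% of all genes. The one listed gene that was not tested was Fgf21. The list was assembled with earlier results of these data known, so the count is a description.

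Asns, asparagine synthetase (chr6:7675169-7693254, minus strand), makes asparagine from aspartate. Its level was 45.7, 27.7, 37.5 and 31.01 TPM in 25 mg/kg replicates 1 to 4 and 168, 138, 166 and 193 TPM in 50 mg/kg replicates 1 to 4. All 4 libraries at the higher dose lay above every library at the lower dose. The means were 35.5 ± 7.91 and 166 ± 22.4 TPM (SD, n = 4), a log2 fold change of 2.21 ± 0.16 (SE; limma adjusted p = 3.0e-08). Day 4 vehicle tumours held 22.3 to 28.3 TPM.

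Of 12 synthesis enzymes, Asns included, 10 rose, with a median log2 fold change of 1.09. Mthfd2, the mitochondrial enzyme of 1-carbon folate metabolism, read 33.6, 18.7, 26.3 and 25.2 TPM at 25 mg/kg and 84.9, 75.1, 97.4 and 147 TPM at 50 mg/kg. Replicate 4 was well above the other 50 mg/kg libraries, and no library of one dose reached the other (log2 fold change 1.90 ± 0.26 SE; limma adjusted p = 1.1e-04). Aldh1l2, another mitochondrial enzyme of folate metabolism, went from 11.2 ± 1.60 to 37.5 ± 6.89 TPM (1.65 on the log2 scale, adjusted p = 3.0e-08 with limma). It overlaps the more abundant D10Wsu102e on the opposite strand and is uncertain to that extent. Shmt2, which passes 1-carbon units from serine, went from 104 ± 9.76 to 207 ± 24.1 TPM (log2 fold change 0.98). The serine pathway enzymes Phgdh, Psat1 and Psph rose by 0.99, 1.02 and 1.12 on the log2 scale, and the proline pathway enzymes Aldh18a1 and Pycr1 by 1.24 and 1.07. Cth, which releases cysteine from cystathionine, rose by 1.10. Cbs, the enzyme before it, differed by -0.04 (adjusted p = 0.977 with limma), and Mthfd1l by 0.65 (adjusted p = 0.055).

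Among 12 transcription factors and regulators, 6 rose. Atf5, a bZIP factor whose translation is raised under stress, read 60.3, 52.3, 60.2 and 46.0 TPM at 25 mg/kg and 270, 216, 300 and 236 TPM at 50 mg/kg. The doses were far apart in every library (log2 fold change 2.20 ± 0.17 SE, limma adjusted p = 6.4e-08). Il4i1 and the more abundant Nup62 overlap Atf5 on the opposite strand, so part of its reads could be theirs. Chac1, which degrades glutathione, read 0.72, 0.50, 2.97 and 1.00 TPM at 25 mg/kg and 7.19, 4.62, 10.1 and 28.0 TPM at 50 mg/kg. Replicate 4 at 50 mg/kg was more than 2 times the next library, and the group SD of 10.6 TPM was close to the mean of 12.5 TPM. The doses did not overlap, a condition for the largest rises, and the gene was called (log2 fold change 2.38 ± 0.41 SE, limma adjusted p = 0.00153). That call was lost when only the groups compared were fitted (adjusted p = 0.0648), as was that of Trib3, a pseudokinase that feeds back on ATF4 (7.30 ± 0.84 against 23.3 ± 15.4 TPM; log2 fold change 1.35; adjusted p = 0.0128, and 0.124 in that fit).

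Ddit3, the stress factor CHOP, read 14.4, 16.1, 15.0 and 14.6 TPM at 25 mg/kg and 28.4, 22.0, 33.2 and 41.7 TPM at 50 mg/kg. The libraries at 25 mg/kg were nearly level and all lay below those at 50 mg/kg (log2 fold change 0.98 ± 0.16 SE; limma adjusted p = 0.00107), with the reservation that Mars, a more abundant gene on the opposite strand, overlaps Ddit3. Cebpg, a dimer partner of ATF4, rose from 41.2 ± 1.79 to 65.7 ± 12.03 TPM. Nupr1, a small stress-induced chromatin protein, went from 214 ± 19.0 to 554 ± 61.3 TPM (adjusted p = 0.0369 with limma), a call that was lost in 10 of 22 alternative analyses.

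Atf4 itself, whose control is largely translational, read 185, 180, 177 and 162 TPM at 25 mg/kg and 216, 216, 235 and 339 TPM at 50 mg/kg. The doses did not overlap, and replicate 4 stood above the other 50 mg/kg libraries, but the log2 difference of 0.49 ± 0.13 did not pass (limma adjusted p = 0.0605). Across 22 alternatives its adjusted p ran from 0.0117 to 0.203, and 3 of them passed. Atf3 (0.18), Ppp1r15a (0.23), Cebpb (0.16) and Ddit4 (-0.11), all stress-induced regulators in other settings, gave log2 differences that did not pass.

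Of 4 secreted factors tested, 3 rose. Adm2, a peptide of the calcitonin family, read 2.26, 3.23, 2.93 and 4.24 TPM at 25 mg/kg and 17.2, 13.5, 26.7 and 34.6 TPM at 50 mg/kg. The lowest library at the higher dose was about 3 times the highest at the lower dose (log2 fold change 2.46 ± 0.33 SE; limma adjusted p = 9.7e-05). Stc2, a secreted glycoprotein, read 7.01, 3.53, 4.27 and 10.5 TPM against 14.5, 13.2, 20.3 and 37.6 TPM, with 50 mg/kg replicate 4 again highest (log2 fold change 1.59; adjusted p = 0.0162). Gdf15, a hormone of illness-related appetite loss, rose from 2.17 ± 0.59 to 5.76 ± 2.62 TPM (1.04 on the log2 scale; adjusted p = 0.0335 with limma). Artn, a GDNF-family ligand outside the list, was among the 12 largest rises, at 2.38 ± 0.72 against 11.2 ± 3.83 TPM (log2 fold change 1.83).

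The libraries at 50 mg/kg kept a common order. In 10 of the 12 genes with the largest rises, 50 mg/kg replicate 4 was the highest library of its group, and in 10 of 12 replicate 2 was the lowest. Replicate 4 was also the library with the most skeletal muscle and erythroid RNA; the part of that in its position was not tested. Without it, 14 integrated stress response genes, 6 transporters and 11 tRNA synthetases were still called higher.

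**Figure D2:**
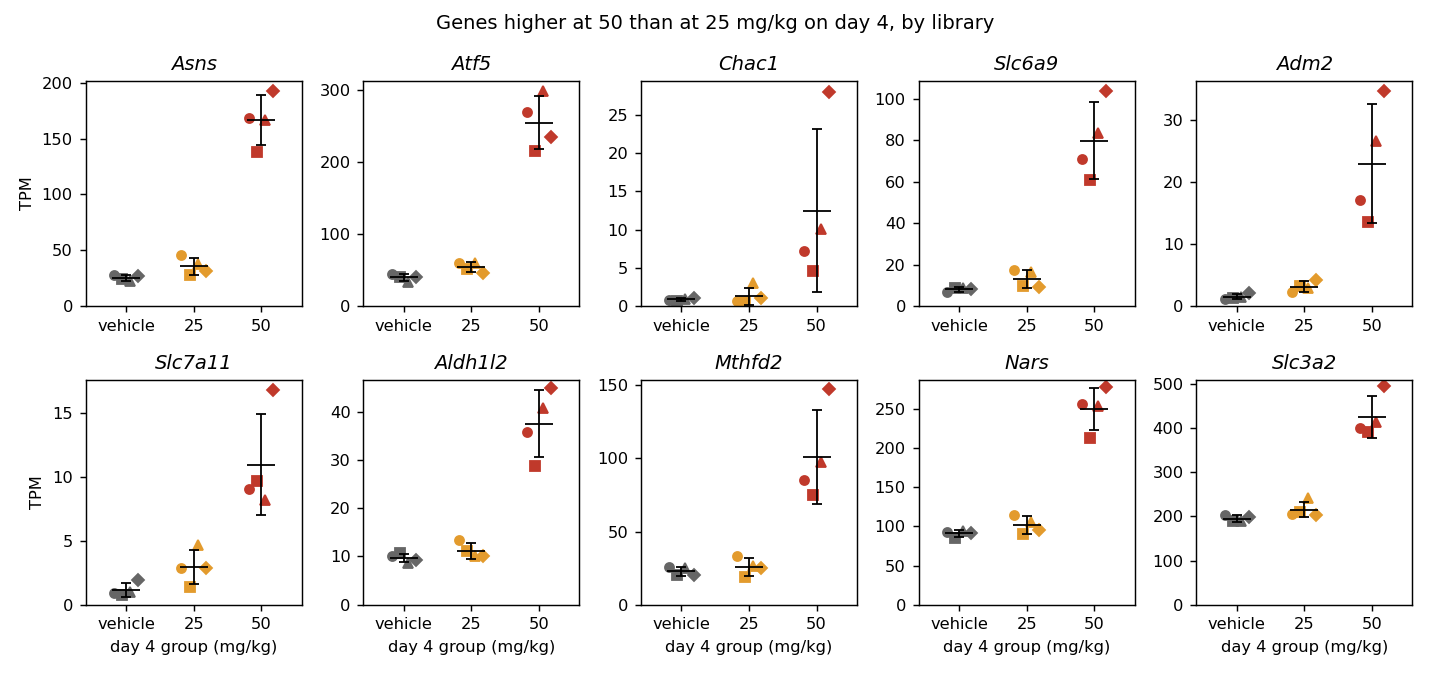
TPM (linear axis from 0) of 10 genes called higher at 50 mg/kg in the 4 day 4 libraries each of vehicle, 25 mg/kg and 50 mg/kg; marker shapes stand for replicates 1 to 4 (circle, square, triangle, diamond), and the long bar and whiskers show the mean and SD. In each panel the 4 libraries at 50 mg/kg lie above all 4 at 25 mg/kg, and the 25 mg/kg libraries lie nearer to vehicle than to 50 mg/kg.

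Of 14 amino acid transporters 7 rose, where 1.15% of all genes rose, none fell, and the median log2 fold change was 0.60. Slc6a9, the glycine transporter GlyT1, gave the largest rise of the named genes. It read 17.5, 9.89, 16.4 and 9.02 TPM at 25 mg/kg and 71.2, 60.7, 83.5 and 104 TPM at 50 mg/kg. Every library at 50 mg/kg was more than 3 times the highest at 25 mg/kg (log2 fold change 2.53 ± 0.25 SE; limma adjusted p = 2.0e-06); B4galt2 and Ccdc24 overlap it on the opposite strand, so part of its reads could be theirs. Slc3a2, the shared heavy chain of several transporters, read 206, 211, 241 and 203 TPM against 400, 391, 413 and 494 TPM (log2 fold change 0.97 ± 0.07 SE; limma adjusted p = 5.2e-08). Of its light chains, Slc7a5 of the leucine exchanger LAT1 went from 147 ± 20.7 to 327 ± 62.9 TPM (log2 fold change 1.14), and Slc7a11 of the cystine importer xCT from 2.97 ± 1.33 to 10.96 ± 3.95 TPM (log2 fold change 1.60). The glutamine carrier Slc1a5 rose by 0.81 and the cationic amino acid carriers Slc7a1 and Slc7a3 by 1.03 and 0.91 on the log2 scale. Slc38a2 (0.21), Slc1a4 (0.39) and Slc7a6 (0.24), carriers of neutral or basic amino acids, did not pass, and the taurine carrier Slc6a6 differed by -0.23.

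All called tRNA synthetases were among those listed as cytosolic, a grouping set by the gene list and not measured here. Of 20 cytosolic enzymes, 11 rose, where 1.15% of all genes rose, and their median log2 fold change was 0.75. None of 17 mitochondrial enzymes was called, where 2.15% of all genes were called, and their median was 0.04. This split was not itself tested. Nars, which charges asparagine tRNA, read 115, 90.4, 106 and 94.9 TPM at 25 mg/kg and 256, 212, 253 and 278 TPM at 50 mg/kg. The ranges were well separated (log2 fold change 1.29 ± 0.09 SE; limma adjusted p = 3.0e-08). Cars, for cysteine, rose by 1.41, Tars, for threonine, by 1.12, Aars, for alanine, by 1.12, Mars, for methionine, by 1.10 and Gars, for glycine, by 1.05. Lars, Iars, Sars, Yars and Eprs rose by between 0.69 and 0.97.

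Of 17 translation initiation genes 3 rose, where 1.15% of all genes rose, and the median of the list was 0.03. Eif4ebp1, the repressor of cap-dependent initiation 4E-BP1, read 78.0, 74.2, 83.8 and 70.8 TPM at 25 mg/kg and 223, 141, 196 and 244 TPM at 50 mg/kg. The higher dose was above in every library (log2 fold change 1.35 ± 0.15 SE; limma adjusted p = 7.9e-06). Eif2s2, the β subunit of eIF2, rose by 0.66 and Eif1, a start-codon selection factor, by 0.51. Endoplasmic reticulum stress genes had a median of -0.10, and 2 of 20 rose, where 1.15% of all genes rose. Only the sensor Atf6 (log2 fold change 0.39; adjusted p = 0.0145 with limma) and the degradation adaptor Sel1l (0.32; adjusted p = 0.0167) were called there among 20, while the chaperones Hspa5 and Hsp90b1 differed by -0.28 and -0.20 without passing.

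Sterol genes went the other way. Of 28 cholesterol synthesis, uptake and regulation genes tested, out of 29 listed, 9 fell at the higher dose and none rose, where 1.00% of all genes fell. The median log2 fold change was -0.51, and 17 of the 28 did not overlap between doses with 50 mg/kg lower, against 4.47% of all genes. The count of 9 became 5 when 25 mg/kg replicate 1 was left out, 4 when it was 25 mg/kg replicate 4 and 4 when it was 50 mg/kg replicate 3, while the median stayed between -0.59 and -0.41 over 22 alternatives.

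Idi1, isopentenyl diphosphate isomerase, read 51.7, 34.2, 30.3 and 54.5 TPM at 25 mg/kg and 16.03, 16.3, 13.8 and 21.8 TPM at 50 mg/kg; the 25 mg/kg libraries were spread, but none came down to the 50 mg/kg range (log2 fold change -1.25 ± 0.25 SE; limma adjusted p = 0.00767). Insig1, a sterol-sensing retention factor that SREBP itself induces, fell by 1.03 on the log2 scale.

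Between them the synthesis enzymes contributed 6 of the 9 calls, with 19 of 20 differences below 0. Fdps, Fdft1, Lss, Hsd17b7 and Hmgcs1, enzymes from the start of the pathway to its sterol steps, fell by 0.90, 0.74, 0.79, 0.78 and 0.69 on the log2 scale, and the cholesterol transfer protein Stard4 by 0.71; Fdft1 is overlapped on the opposite strand by the more abundant Ctsb. Abca1 and Abcg1, cholesterol exporters, differed by 0.63 and 0.55 without passing. Of 12 fatty acid synthesis genes only the desaturase Scd2 fell, from 174 ± 19.6 to 112 ± 24.8 TPM (-0.65 on the log2 scale; limma adjusted p = 0.0167).

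A sterol response element was searched as TCACNCCAC on both strands in the same windows. It was present in 1.22% of all promoters and in 1 of 20 cholesterol list promoters, that of Hmgcs1. It was also in 2 of 17 glycolysis promoters, those of Aldoc and Pkm. It was in none of 27 integrated stress response, 9 transporter, 26 tRNA synthetase or 15 hypoxia promoters. Among genes called lower it occurred in 4 of 110 (3.64%), and among genes called higher in 0 of 131. The Hmgcs1 window is shown with capitals on the element.
Hmgcs1, chr13:119690194-119690242, plus strand: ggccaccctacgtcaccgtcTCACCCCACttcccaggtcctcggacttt

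Of 19 hypoxia-induced genes, 9 fell and 1 rose, where 1.00% of all genes fell and 1.15% rose. The median log2 fold change was -0.43. Ankrd37, an ankyrin-repeat target of HIF, read 18.1, 13.9, 10.3 and 21.3 TPM at 25 mg/kg and 3.77, 1.65, 3.81 and 3.08 TPM at 50 mg/kg. The doses were clearly apart (log2 fold change -2.04 ± 0.26 SE; limma adjusted p = 6.3e-05), but Ufsp2, more abundant, overlaps it on the opposite strand. Slc16a3, the lactate exporter MCT4 (chr11:120948480-120960868, plus strand), read 12.8, 17.1, 12.9 and 20.4 TPM against 4.04, 3.20, 4.64 and 3.47 TPM. Here too every library at 50 mg/kg was lower than every library at 25 mg/kg (log2 fold change -1.78 ± 0.24 SE; limma adjusted p = 1.2e-04).

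Egln3, the HIF prolyl hydroxylase PHD3, read 106, 130, 95.4 and 148 TPM at 25 mg/kg and 44.3, 40.02, 47.3 and 52.2 TPM at 50 mg/kg. The 25 mg/kg libraries varied much more than those at 50 mg/kg and stayed above them (log2 fold change -1.35 ± 0.20 SE; limma adjusted p = 3.6e-04). Bnip3, a mitophagy receptor, read 32.2, 47.8, 32.2 and 60.8 TPM against 23.1, 12.1, 17.3 and 14.4 TPM, without overlap (log2 fold change -1.31; adjusted p = 0.00371). Higd1a, Egln1, P4ha1 and Bnip3l, which act in respiration, oxygen sensing, collagen hydroxylation and mitophagy, fell by 0.79, 0.38, 0.46 and 0.39. Car9, carbonic anhydrase IX, fell by 1.10 with an adjusted p of 0.0499 (limma) that passed in only 3 of 22 alternatives. Angptl4, a lipase inhibitor also induced by fasting signals, was the 1 gene that rose, from 32.6 ± 5.56 to 58.6 ± 3.52 TPM. Vegfa, the main angiogenic ligand, read 151, 136, 136 and 230 TPM at 25 mg/kg and 110, 79.5, 117 and 133 TPM at 50 mg/kg, and its log2 difference of -0.56 did not pass (limma adjusted p = 0.285).

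Of 18 glycolysis genes 11 fell, where 1.00% of all genes fell, none rose and the median log2 fold change was -0.53. Tpi1, triosephosphate isomerase, read 311, 344, 327 and 414 TPM at 25 mg/kg and 187, 178, 183 and 191 TPM at 50 mg/kg. The higher dose group was tight and wholly below the lower (log2 fold change -0.91 ± 0.10 SE; limma adjusted p = 6.0e-06). Pgam1, phosphoglycerate mutase, read 382, 364, 346 and 421 TPM against 219, 217, 220 and 241 TPM (log2 fold change -0.75; adjusted p = 1.5e-04). Ldha, lactate dehydrogenase A, read 466, 468, 457 and 525 TPM against 323, 277, 310 and 341 TPM (log2 fold change -0.61; adjusted p = 0.0017 with limma). The glucose transporter Slc2a1 fell by 0.95, Pfkl of phosphofructokinase by 0.83, Pgk1 by 0.76, Aldoa by 0.62, Pkm by 0.59, Eno1 by 0.47, Gapdh by 0.42 and Gpi1 by 0.42 on the log2 scale. The neighbouring paralogues Pfkp (0.23), Hk1 (-0.13) and Slc2a3 (-0.05) did not pass. Several of these enzymes have near-identical processed copies in the genome, so their levels are uncertain where reads were split.

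The counts of hypoxia, glycolysis and sterol genes depended on single libraries, and all of them on 25 mg/kg replicate 4. Across the 12 largest falls, 25 mg/kg replicate 4 was the highest library of its group in 11. Without it, 5 hypoxia genes, 6 glycolysis genes and 4 cholesterol genes were still called lower. Without 50 mg/kg replicate 4, 5 hypoxia genes were called lower, and the same number passed with the macrophage marker level as a covariate. The medians of the 3 lists remained below 0 in all 22 alternatives.

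**Figure D3:**
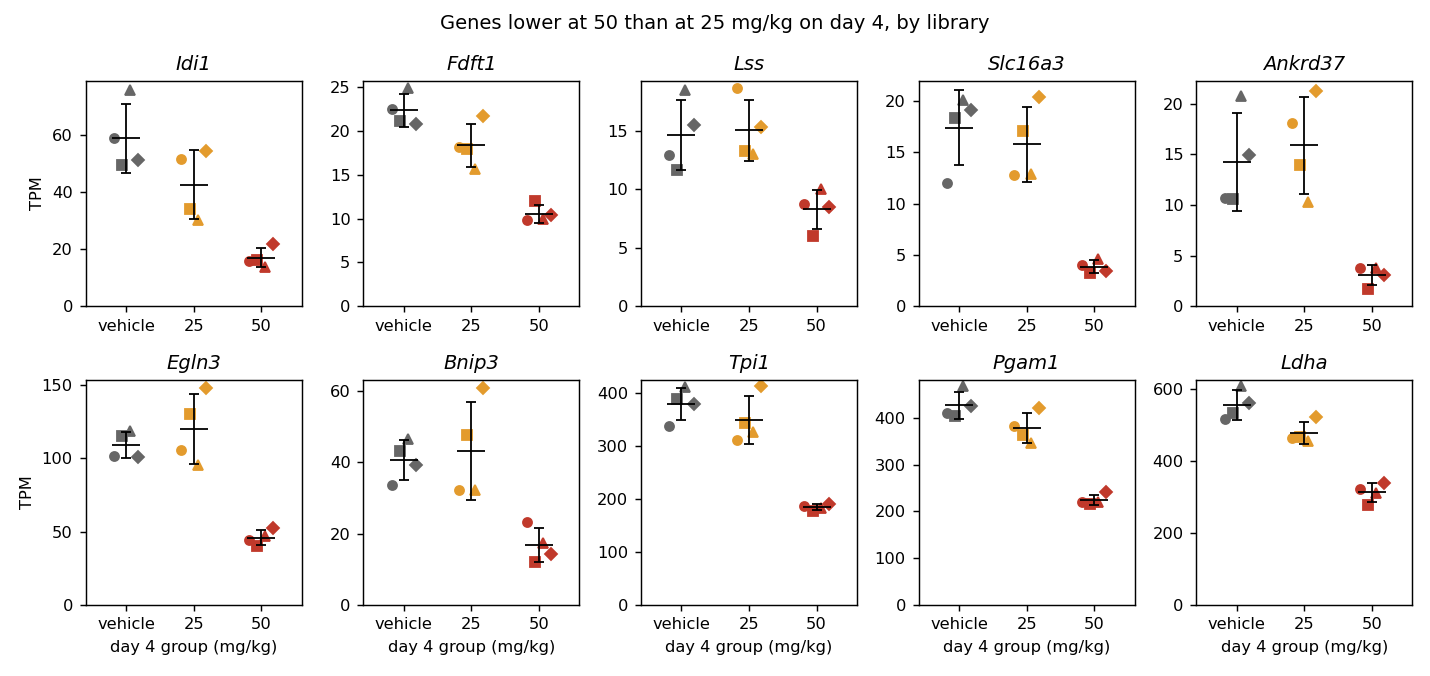
TPM (linear axis from 0) of 10 sterol, hypoxia and glycolysis genes called lower at 50 mg/kg in the 4 day 4 libraries each of vehicle, 25 mg/kg and 50 mg/kg; marker shapes stand for replicates 1 to 4 (circle, square, triangle, diamond), and the long bar and whiskers show the mean and SD. The 50 mg/kg libraries lie below all 25 mg/kg libraries in each panel, and the diamond, replicate 4, tops the 25 mg/kg group in all panels but that of Lss.

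The hypoxia response core, searched as ACGTG or GCGTG on both strands, is short and common: it was in 41.5% of all promoters and in 59.9% of those of tested genes. It occurred in 15 of 15 hypoxia promoters and 15 of 17 glycolysis promoters found in the table. It was also in 21 of 27 integrated stress response, 14 of 20 cholesterol, 6 of 9 transporter and 16 of 26 tRNA synthetase promoters. Among genes called higher it occurred in 60.3%, and among genes called lower in 61.8%. The windows of Slc16a3 and Bnip3 are shown, with 1 core in capitals.
Slc16a3, chr11:120949020-120949064, plus strand: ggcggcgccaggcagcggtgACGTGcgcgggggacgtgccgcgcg
Bnip3, chr7:138909589-138909633, minus strand: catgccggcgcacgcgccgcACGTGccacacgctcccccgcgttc

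Outside the stress response, transporter, synthetase, sterol, hypoxia and glycolysis lists, no list held more than 3 called genes. Of all 48 lists, those of these programmes included, 18 held at least 1 called gene and 30 held none. Together they held 83 called genes among 746 distinct genes tested, 46 up and 37 down, most of them in these programmes. Of all genes tested, 2.15% were called. Other large falls were those of the serine protease family member Prss35, which read 5.10, 4.66, 4.49 and 6.50 TPM at 25 mg/kg and 0.67, 0.71, 0.79 and 1.16 TPM at 50 mg/kg. The groups were far from overlapping (log2 fold change -1.75 ± 0.21 SE; limma adjusted p = 2.3e-05). Fgfbp1, a carrier of fibroblast growth factors, fell from 22.0 ± 2.45 to 7.25 ± 1.13 TPM (log2 fold change -1.48), Ivl, the envelope protein involucrin, from 6.13 ± 1.12 to 1.74 ± 1.31 TPM (-1.47) and Cox4i2, an oxygen-regulated subunit of cytochrome oxidase, from 9.54 ± 3.20 to 3.37 ± 1.18 TPM (-1.26). Nqo1, a quinone reductase of the NRF2 pathway, fell by 0.56 and Tfrc, the transferrin receptor, by 0.86 on the log2 scale. The call of Nqo1 passed in all 22 alternatives, and that of Tfrc was lost in 11 of them, with an adjusted p (limma) of up to 0.146. Mamdc4 also ranked among the falls (-1.25), with Phpt1 overlapping it on the same strand.

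Proliferation genes gave small differences of 1 sign. All 29 DNA replication genes and all 24 mitosis genes were below 0, with medians of -0.27 and -0.34, yet only Lig1, DNA ligase 1, was called (72.7 ± 7.72 against 46.9 ± 9.26 TPM; limma adjusted p = 0.0424), and that call was lost in 14 of 22 alternatives. Of all genes tested, 1.00% were called lower and 54.5% were above 0. Among the 29 replication and 24 mitosis genes, 8 and 12 did not overlap between doses with 50 mg/kg lower, against 4.47% of all genes. Mki67 read 116, 108, 115 and 142 TPM at 25 mg/kg and 80.8, 97.0, 80.6 and 103 TPM at 50 mg/kg. The doses did not overlap, and the log2 difference of -0.41 ± 0.18 did not pass (limma adjusted p = 0.289).

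The Wnt pathway drives these tumours and β-catenin is its transcriptional effector. None of 16 β-catenin target genes tested was called, where 2.15% of all genes were called, and their median was 0.14. Axin2, the feedback inhibitor used as a readout of β-catenin, read 39.8, 49.8, 54.7 and 46.0 TPM at 25 mg/kg and 42.9, 61.8, 52.1 and 37.5 TPM at 50 mg/kg. The groups overlapped throughout, and the log2 difference was 0.01 ± 0.16 (limma adjusted p = 0.984). Lgr5 differed by -0.01, Ccnd1 by -0.19, Myc by -0.17, and Notum and Wif1, secreted Wnt inhibitors, by 0.56 and 0.52, none of which passed. Ctnnb1, β-catenin itself, differed by 0.02 and Crebbp, which encodes CBP, by 0.04. Of 22 pathway components only the receptor Fzd2 was called, from 18.1 ± 1.42 to 13.7 ± 1.71 TPM (-0.38 on the log2 scale; adjusted p = 0.0101 with limma).

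**Figure D4:**
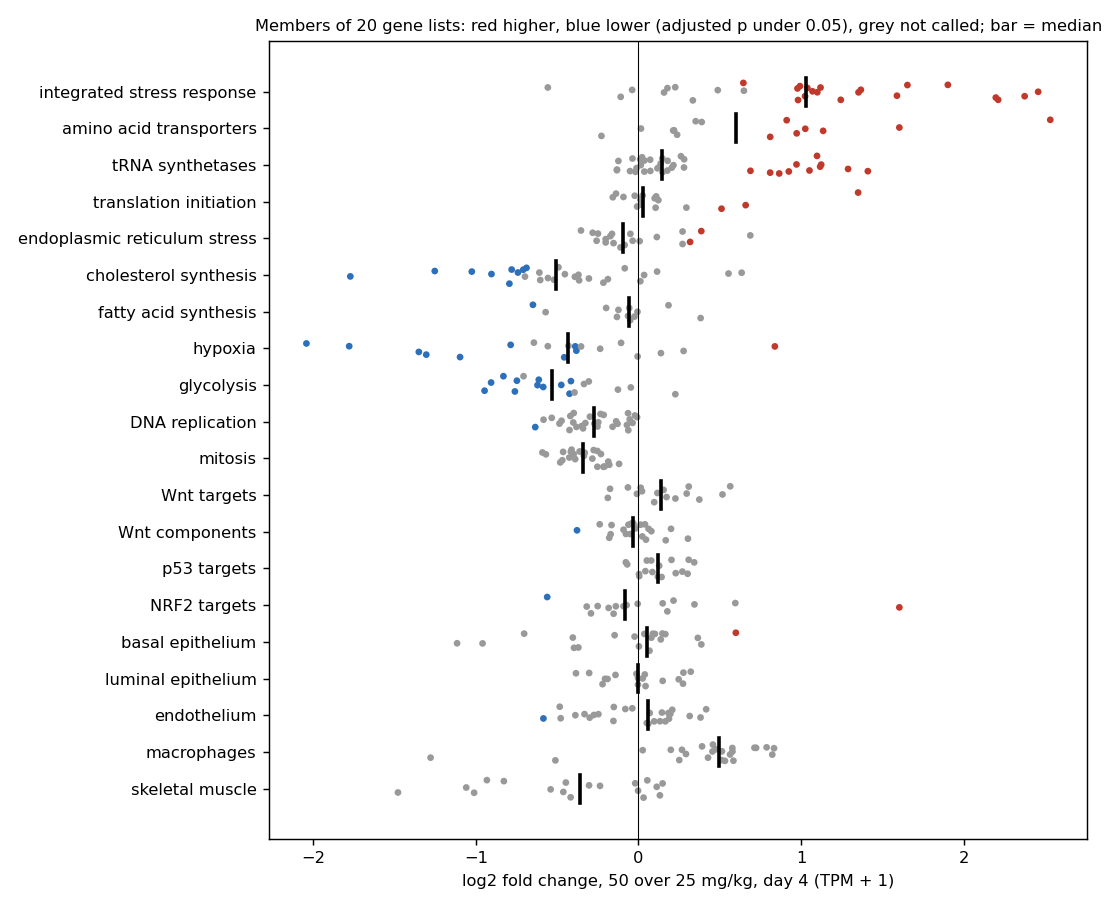
Each dot is 1 member of 1 of 20 gene lists; the horizontal axis is its log2 fold change of 50 over 25 mg/kg on day 4 on the log2(TPM + 1) scale, and the black bar is the list median. Red and blue mark members called higher and lower; red gathers in the integrated stress response, transporter and synthetase lists and blue in the cholesterol, hypoxia and glycolysis lists.

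Markers of other cells passed the threshold rarely, where 2.15% of all genes passed. None of 24 macrophage markers was called, although 22 were above 0 with a median of 0.49; their summed TPM ran from 3017 to 4705 at 25 mg/kg and from 3610 to 6286 at 50 mg/kg. No fibroblast, pericyte, adipocyte, muscle, erythroid, neutrophil or lymphoid marker was called. Among endothelial genes only Pgf, placental growth factor, fell, from 53.9 ± 8.96 to 35.4 ± 4.24 TPM (-0.58 on the log2 scale; adjusted p = 0.0109 with limma). Of the basal markers only the hemidesmosome integrin Itgb4 rose, from 95.3 ± 6.21 to 145 ± 16.5 TPM (0.60 on the log2 scale; adjusted p = 0.0109), while the keratins Krt5, Krt14, Krt8 and Krt18 differed by 0.15, 0.14, 0.04 and 0.25 without passing. Acta2, smooth muscle actin of myoepithelium and pericytes, had 1040 ± 54.7 against 565 ± 222 TPM and did not pass (adjusted p = 0.0641). With the mean macrophage marker level as a covariate, chosen after seeing the data, 255 genes were called and 210 of the 339 were among them; with the adipocyte level, 272 were called and 218 of the 339 were among them.

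Each dose was also compared with vehicle on day 4. These comparisons share the 4 vehicle libraries with each other and the dosed libraries with the comparison above, so their values are only given side by side. At 50 mg/kg 1457 genes (9.26%) were called against vehicle, 779 (4.95%) higher and 678 (4.31%) lower. At 25 mg/kg 0 genes (0.00%) passed with limma, 724 had an unadjusted p under 0.05 and the smallest adjusted p was 0.914; no other tool was run. Asns gave log2 fold changes of 2.66 at 50 mg/kg and 0.44 at 25 mg/kg, Atf5 2.64 and 0.45, Slc6a9 3.13 and 0.60, and Slc7a11 2.44 and 0.83. Idi1 gave -1.73 and -0.48. For Slc16a3 the values were -1.91 and -0.13 and for Egln3 -1.23 and 0.12. The medians of the integrated stress response list were 1.03 and 0.10, those of cholesterol synthesis -0.76 and -0.24, of hypoxia -0.49 and 0.06 and of glycolysis -0.61 and -0.10.

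On day 8 the same dose comparison, made on 8 other libraries, called 170 genes (1.08%), 36 (0.229%) higher and 134 (0.852%) lower. Of the 181 genes higher on day 4, 1 was also called higher on day 8, which is 0.552% of the day 4 list and 2.78% of the day 8 list; it was Jade2, a chromatin-associated ubiquitin ligase. Of the 158 lower on day 4, 31 were also lower on day 8 (19.6% and 23.1%). Called or not, 127 of the 181 were above 0 on day 8 and 133 of the 158 were below 0, with medians of 0.08 and -0.18. Of all genes tested, 43.1% were above 0 on day 8. The difference between the 2 days was called for 59 genes (0.375%), 13 (0.0826%) more positive and 46 (0.292%) more negative on day 8. These included 41 of the 181 and 8 of the 158, a count to which the choice of the genes on day 4 contributes. The day 8 count depended on single libraries of day 8, and only dosed libraries of that day were left out for it. Leaving out replicates 2, 3 or 4 at 25 mg/kg gave 73, 38 or 113 genes. Leaving out replicates 1 or 3 at 50 mg/kg gave 293 or 56. The count for the difference between days fell to between 33 and 36 without any 1 of 6 libraries, named with the other effects of processing.

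On day 8 no gene was called higher in the integrated stress response, transporter or tRNA synthetase lists. Asns read 26.6, 24.8, 33.5 and 42.3 TPM at 25 mg/kg and 48.1, 38.9, 47.8 and 55.0 TPM at 50 mg/kg on day 8. The ranges touched, with 1 library at 25 mg/kg above the lowest at 50 mg/kg, and the log2 difference was 0.58 (limma adjusted p = 0.0711). The change between days was -1.63 ± 0.22 (SE; limma adjusted p = 7.1e-04). The dose difference of Nars was 1.29 on day 4 and 0.24 on day 8, that of Slc3a2 0.97 and 0.02, and both changes between days passed (-1.05 and -0.96). The list medians on day 8 were 0.11 for the integrated stress response, -0.05 for transporters and 0.11 for cytosolic tRNA synthetases. In these lists the difference between days was called for 7, 3 and 10 genes, all with the smaller value on day 8, against 0.292% of all genes. Vegfa, which the integrated stress response list also holds, fell by 1.39 on day 8 (limma adjusted p = 0.00798).

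Sterol genes had a median of -0.10 on day 8, and none was called. The day 8 medians of hypoxia and glycolysis genes were -0.54 and -0.49, with 5 and 7 genes called lower, against 0.852% of all genes. No difference between days was called in either list. Slc16a3 read 11.4, 12.9, 15.97 and 17.7 TPM against 3.15, 4.40, 4.88 and 7.68 TPM on day 8. These groups did not overlap either (log2 fold change -1.39; limma adjusted p = 0.00938). Prss35 gave -1.75 on day 4 and -1.89 on day 8.

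Ivl, Fgfbp1 and Wfdc12 gave higher dose differences on day 8 than on day 4. Ivl had a dose difference of -1.47 on day 4 and 1.02 on day 8 (the latter with limma adjusted p = 0.131), and the change of 2.49 ± 0.47 passed (adjusted p = 0.0163). For Fgfbp1 the values were -1.48 and 0.27, with a change of 1.76. Wfdc12, a small protein with a whey acidic protein domain, differed by -0.22 on day 4 and rose by 1.995 on day 8 (adjusted p = 0.00657 with limma).

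**Figure D5:**
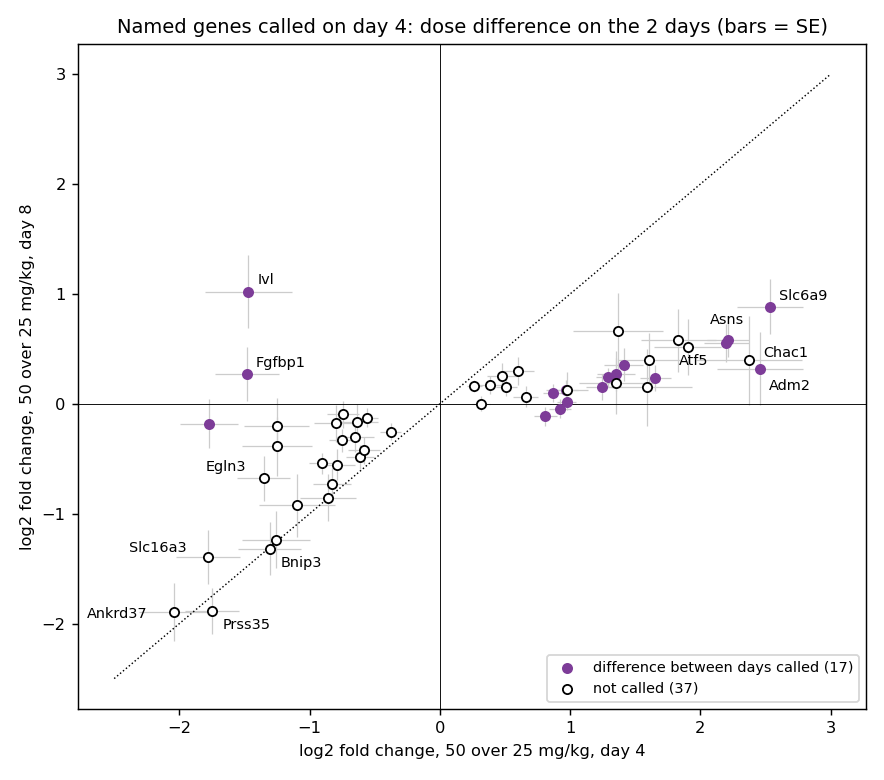
Each point is 1 of the 54 named genes called on day 4; the axes are the log2 fold changes of 50 over 25 mg/kg on day 4 (horizontal) and day 8 (vertical), with grey bars for SE and a dotted line of equal change. Filled points are the 17 genes whose difference between days was called. Stress response genes lie below the line, with smaller values on day 8 than on day 4, such as 0.58 for Asns and 0.15 for Stc2 on day 8. Ankrd37, Prss35, Slc16a3 and Bnip3 lie close to the line.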

How the data were processed

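RNA was purified with RNeasy and strand-specific SureSelect libraries were made from 1 µg of total RNA, per the labels' protocols. Bcl2fastq, Trimmomatic 0.36, STAR 2.5.0c, RSEM 1.2.31 and mm10 (GRCm38) are named in the submitters' processing notes; the sources used here state no annotation release, parameters or strand setting. The authors deposited TPM values with 2 decimals, 1 column per library. TPM keeps no read depth, so depth is unknown, no counting intervals are given, and a rise of abundant genes lowers other values.

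Genes that reached 1 TPM in 4 or more of 24 libraries were transformed to log2(TPM + 1), which understates changes of low genes. A linear model of all 6 groups (R 4.3.3, limma 3.58.1, variance trend on, 18 residual degrees of freedom) supplied each two-sided comparison as a contrast, with Benjamini-Hochberg adjustment over 15736 genes. Every adjusted p is from limma. "Called", "rose" and "fell" mean an adjusted p under 0.05. The fit was tested on simulated data.

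The comparison, the 48 gene lists and the tests were chosen with earlier results of these data known. Lists are described by counts and medians, with no set test. Named genes were the 12 largest rises and falls among called genes with a mean of at least 5 TPM at 1 dose and no overlap (predicted genes left out), up to 4 called members per list or else the 1 with the smallest p, 20 fixed genes, and up to 4 genes in each direction for the difference between days; other list members were chosen after their values were seen, and a few genes are not reported here. Of 96 named genes, 14 overlap an expressed gene on the opposite strand (in 6 a more abundant one) and 2 on the same strand. Coordinates are from GENCODE M21, which matched 47310 of 47729 identifiers, and promoter sequences from RefSeq (GRCm38.p6). No libraries were duplicates: at most 0.998% of genes had equal TPM in a pair.

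Alternatives were TMM factors recomputed from the TPM, quantile normalization, no filter or 5 TPM, pseudocounts of 0.1 and 5, a fit to the compared groups, array weights per library, a robust prior, a block for replicate number, skeletal muscle and erythroid covariates, a minimum of 2-fold, and each library left out in turn. Macrophage and adipocyte covariates were added after seeing the data.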

Additional observations from a re-analysis of the deposited data

Results flagged for a closer look

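For 17 named genes the difference between doses itself differed between day 8 and day 4 (limma contrast of day 8 minus day 4, adjusted p under 0.05). The log2 change between days was -1.65 for Slc6a9, -2.14 for Adm2, -1.63 for Asns, -1.64 for Atf5, -1.42 for Aldh1l2 and -1.09 for Aldh18a1, all higher at 50 mg/kg on day 4. It was -0.96 for Slc3a2 and -0.92 for Slc1a5 among the transporters. For the tRNA synthetases it was -1.055 for Cars, -1.05 for Nars, -0.84 for Lars, -0.77 for Sars and -0.97 for Iars. The translation repressor Eif4ebp1 gave -1.08. Changes in the other direction were 1.76 for Fgfbp1, 2.49 for Ivl and 2.21 for Wfdc12.

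In 5 of 192 groups of 4 day 4 libraries of named genes (2.6%), 1 library lay far from the other 3, where chance gives about 1 in 20. Mamdc4 had 4.07 TPM in 50 mg/kg replicate 4, against 14.6 to 17.1 in the others. Pgam1 had 241.39 TPM in 50 mg/kg replicate 4, against 217 to 220.5. Epgn, an epidermal growth factor family ligand, had 0.42 TPM in 25 mg/kg replicate 2, against 0.88 to 0.97. Abcb1b, a drug efflux pump, had 3.97 TPM in 25 mg/kg replicate 2, against 5.03 to 5.21. The mitochondrial gene mt-Nd4l, which overlaps mt-Nd4, had 123.77 TPM in 25 mg/kg replicate 4, against 290.3 to 331.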

How the results depend on the processing

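The number of genes called on day 4 was 339, and it moved to 58 with a 2-fold minimum, to 219 (166 of the 339 among them) when only the groups compared were fitted, and to 1263 with library weights. Leaving out 1 library gave 148 to 356, all fits assuming that the remaining 3 libraries vary like the other groups. For the difference between days (59) the compared groups alone gave 32, library weights 335 and single libraries left out 33 to 76; it lay between 33 and 36 without day 4 25 mg/kg replicates 2 or 4, day 4 50 mg/kg replicate 4, day 8 25 mg/kg replicates 3 or 4, or day 8 50 mg/kg replicate 3. For day 8 (170) these gave 77, 2264 and 38 to 293, and the macrophage covariate gave 51. Cholesterol genes called lower (9) went to 15 with library weights and to between 4 and 9 with 1 library left out. Hypoxia genes (9) went to 5 with the macrophage covariate and to between 5 and 8, and glycolysis genes (11) to between 6 and 11. The cause was not tested. Genes called higher stayed between 14 and 19 in the integrated stress response, 6 and 7 among transporters and 11 and 13 among tRNA synthetases with 1 library left out. Of 54 named genes called, 35 passed in all 22 alternatives and 19 were lost in at least 1, Car9 in 19 and Ivl, Sel1l and Stc2 in 5 each; 15 of 42 uncalled genes passed in at least 1, and none of the 96 reversed.

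Same-numbered libraries of the 2 doses correlated at 0.03 to 0.33 in their deviations, and 2 of 4 matched their own number best, so the numbers were not treated as pairs. With the replicate block 353 genes were called on day 4, 67 for the difference between days and 204 on day 8; the block moved the list counts to 18 of the integrated stress response, 8 transporters, 12 tRNA synthetases, 9 cholesterol, 9 hypoxia and 11 glycolysis genes. TPM gives no depth, so precision rests on 4 libraries per group.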

Other observations

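Some genes outside the lists also separated the doses on day 4; they were chosen after their values were seen. Pck2, the mitochondrial enzyme that makes phosphoenolpyruvate, had 15.8 ± 1.30 TPM at 25 mg/kg and 39.3 ± 3.63 TPM at 50 mg/kg (SD, n = 4; log2 fold change 1.26; limma adjusted p = 5.2e-08). Gpt2, the mitochondrial alanine aminotransferase, had 37.5 ± 2.30 and 67.1 ± 7.77 TPM (0.82), and Xpot, the exporter of tRNA from the nucleus, 29.7 ± 2.43 and 50.0 ± 7.72 TPM (0.72). The mitochondrial chaperone Hspa9 rose by 0.60. The non-coding RNAs Snhg12 and Gas5, hosts of small nucleolar RNAs, rose by 0.76 and 0.39. None of these 6 was called on day 8, where the dose differences were 0.23 for Pck2, -0.00 for Gpt2, 0.06 for Xpot, 0.01 for Hspa9, -0.07 for Snhg12 and -0.08 for Gas5.

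Among lower genes outside the lists, the respiratory subunit Uqcrh had 510 ± 23.6 and 406 ± 11.7 TPM (-0.33) and the malate dehydrogenase Mdh1 126 ± 1.42 and 91.6 ± 7.28 TPM (-0.46). These gave -0.00 and 0.00 on day 8 and were not called there. Plod1, a collagen lysyl hydroxylase, fell on both days, by 0.37 on day 4 and by 0.66 on day 8, as did Mgarp, a mitochondrial protein, by 0.96 and 0.97.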
